A study of Mus musculus with 24 samples.

Results

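The 6 genes of the fibroblast growth factor ligands Fgf1, Fgf2, Fgf7, Fgf9, Fgf10 and Fgf18 and the 4 genes of the FGF receptors Fgfr1, Fgfr2, Fgfr3 and Fgfr4 were followed through sorted cells and cultures of the mouse liver. These 10 genes were taken by their symbols, with no rule on their values, from 49568 genes in each of 2 expression tables. Earlier results of these data were known when they were chosen. All 10 are listed in both tables. In the homeostasis experiment 8 of them reached a value of 1 in at least 3 of 12 samples and were tested, and Fgf9 and Fgf10 did not. In the transwell experiment all 10 reached a value of 1 in at least 2 of 12 samples and were tested.

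Most FGFs are secreted signals that bind receptor tyrosine kinases together with heparan sulfate on the cell surface. Alternative splicing of an extracellular exon gives Fgfr1, Fgfr2 and Fgfr3 a IIIb form, typical of epithelium, and a IIIc form, typical of mesenchyme. Fgf7 and Fgf10, which mesenchymal cells usually make, act mainly on the IIIb form of Fgfr2 in neighbouring epithelium, whereas Fgf9 and Fgf18 favour IIIc forms and Fgfr3, and Fgf1 binds all forms. In the liver, Fgfr4 is the main receptor of hepatocytes and answers the hormone Fgf15 to restrain bile acid synthesis. Values per gene, as used here, do not separate the IIIb and IIIc forms.

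In the homeostasis experiment 4 fractions were sorted from the livers of 3 littermates of 12 weeks, the males A and E and the female F. All were heterozygous for the Pdgfra-H2B-GFP reporter, B6.129S4-Pdgfratm11(EGFP)Sor/J, on a C57BL/6 background, so that PDGFRa+ means reporter signal from the Pdgfra locus. Ductal cells (DCs, the epithelium of the bile ducts) were sorted as EpCAM+, and PDGFRa+SCA1+, PDGFRa+SCA1- and PDGFRa-SCA1+ cells were sorted as stroma, all without CD11b, CD45 or CD31. In the transwell experiment wild-type C57BL/6 mice of 8 to 12 weeks gave DCs and SCA1+ stromal cells (SCA1+Msc), each from 2 littermates, sorted without a PDGFRa gate. DCs were sampled at day 0 and as organoids at day 15, grown either alone in expansion medium (EM organoids) or in an insert above SCA1+Msc in mesenchymal medium (co-cultured organoids). SCA1+Msc were sampled at day 0, and at day 15 alone or below the organoids (SCA1+Msc co-cultured), after 7 days of expansion on plastic. Recombinant FGF10 is an ingredient of EM and not of mesenchymal medium, so medium and company of stroma cannot be told apart between both kinds of organoid.

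Depth recovered from the values was 19636174 to 25673544 reads per homeostasis sample and 19303525 to 28075346 reads per transwell sample, and 3 reads were taken as the floor under which a gene is not told apart from absence. No replicate pair held identical values. DCs carried their label, with 6 ductal markers summing to 56244 to 75892. These markers summed to 80.0 to 117 in PDGFRa+SCA1+, 105 to 380 in PDGFRa+SCA1- and 79.3 to 3784 in PDGFRa-SCA1+ cells. The 7 mesenchymal markers summed to 30321 to 53462 in both PDGFRa+ fractions against 48.9 to 481 elsewhere. PDGFRa-SCA1+ cells, although sorted without CD31, had an endothelial profile, with 7 endothelial markers summing to 3118 to 3178 against 2.63 to 22.2 in the other fractions. SCA1+Msc at day 0 held 5 hepatocyte markers at a sum of 17689 to 22237 TPM and 6 ductal markers at 1192 to 2539 TPM, and after culture these sums were 25.4 to 411 and 215 to 554 TPM. Levels per sample are averages over all cells of a sort, so that fewer cells of a type and less RNA per cell cannot be told apart.

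The start regions of 4 members are shown because these genes carry contrasts described next, and because their base composition differs. Each is the stretch of 250 bases just before the annotated start in RefSeq on GRCm38.p6, written 5′ to 3′ on the strand of the gene, with CpG pairs in capitals. Fgf7 lies on the plus strand of chromosome 2 and its stretch is chr2:126034408-126034657 with 6 CpG. Fgf10 lies on the plus strand of chromosome 13 and its stretch is chr13:118714449-118714698 with 8 CpG. Fgf18 lies on the minus strand of chromosome 11 and its stretch is chr11:33147401-33147650 with 37 CpG. Fgfr2 lies on the minus strand of chromosome 7 and its stretch is chr7:130266809-130267058 with 2 CpG.
Fgf7: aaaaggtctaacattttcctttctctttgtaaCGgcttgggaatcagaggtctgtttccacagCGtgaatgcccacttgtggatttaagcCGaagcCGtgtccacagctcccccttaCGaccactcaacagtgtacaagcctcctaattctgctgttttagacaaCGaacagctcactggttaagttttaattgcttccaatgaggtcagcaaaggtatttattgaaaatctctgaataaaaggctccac
Fgf10: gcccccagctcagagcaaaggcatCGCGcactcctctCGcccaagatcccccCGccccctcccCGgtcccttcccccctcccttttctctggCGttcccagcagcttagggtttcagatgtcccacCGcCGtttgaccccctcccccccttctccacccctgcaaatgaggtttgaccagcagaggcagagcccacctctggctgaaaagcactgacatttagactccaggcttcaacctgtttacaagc
Fgf18: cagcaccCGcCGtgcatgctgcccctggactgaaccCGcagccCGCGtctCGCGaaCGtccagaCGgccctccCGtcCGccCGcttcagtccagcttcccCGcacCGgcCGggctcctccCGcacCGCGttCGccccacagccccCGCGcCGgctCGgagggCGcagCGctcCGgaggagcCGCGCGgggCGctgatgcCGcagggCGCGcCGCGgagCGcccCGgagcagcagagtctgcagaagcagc
Fgfr2: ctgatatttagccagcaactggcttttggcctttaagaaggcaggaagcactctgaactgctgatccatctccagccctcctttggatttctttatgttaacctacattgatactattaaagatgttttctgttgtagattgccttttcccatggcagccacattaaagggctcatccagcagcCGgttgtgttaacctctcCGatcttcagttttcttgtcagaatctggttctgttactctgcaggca

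Of the 10 members 8 matched an entry of the promoter table, and Fgf1 and Fgfr1 did not. In windows of 300 bases, 250 before to 50 after a start, the TATA box (TATAAA) was in none of the 9 windows of these members on either strand and in 13.6% of all 32851 windows. The GC box (GGGCGG), found in 35.7% of all windows, was in those of Fgf2, Fgf10, Fgf18, Fgfr3 and Fgfr4 and not in those of Fgf7, Fgf9 and Fgfr2. The letters are a description of these windows and not a site or a cause.

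Ligand transcripts were highest in PDGFRa+ cells, whereas receptor transcripts were high in both DCs and PDGFRa+ cells. The 6 ligands summed to 80.2 ± 47.3 (SD, n = 3) in PDGFRa+SCA1- and 89.9 ± 23.5 (SD, n = 3) in PDGFRa+SCA1+ cells, and to 5.61 ± 1.91 (SD, n = 3) in DCs and 17.1 ± 8.63 (SD, n = 3) in PDGFRa-SCA1+ cells. The 4 receptors summed to 452 ± 56.2 (SD, n = 3) in DCs, 333 ± 24.4 (SD, n = 3) in PDGFRa+SCA1-, 252 ± 46.0 (SD, n = 3) in PDGFRa+SCA1+ and 55.6 ± 8.52 (SD, n = 3) in PDGFRa-SCA1+ cells. All levels of this experiment are in the deposited unit, which the authors named TPM and which strays from it by a factor of 0.722 to 1.39. Log2 differences are on the scale of log2(value + 1), which understates changes of low genes, and were tested with limma over all genes. Printed 95% intervals are not adjusted for the number of genes.

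**Figure D1:**
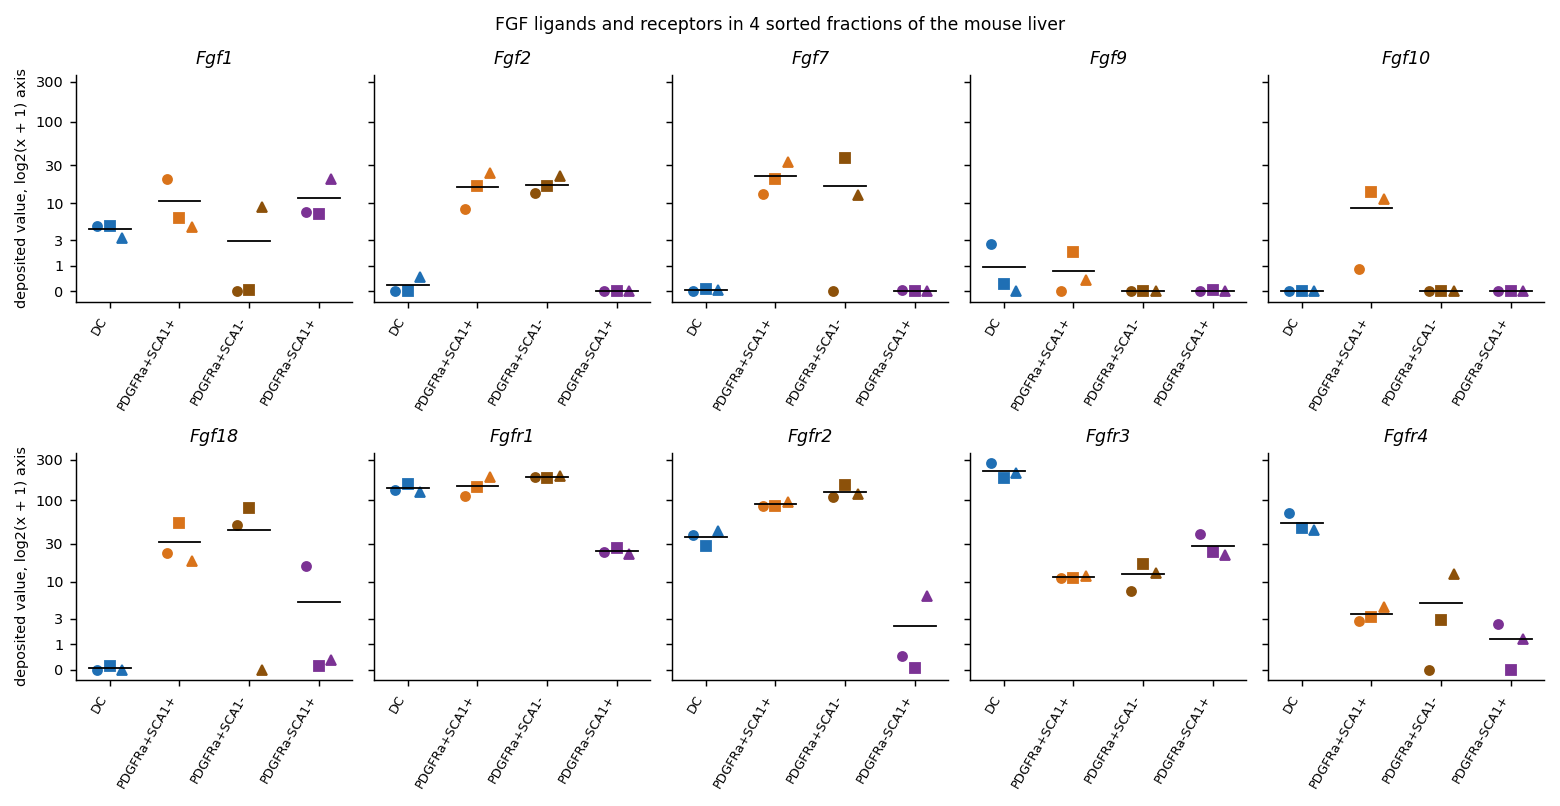
Level of each FGF ligand and receptor in every sample of the 4 sorted fractions (circles for mouse A, squares for E, triangles for F), with the group mean as a short line, on a log2(x + 1) axis in the deposited unit. Fgf2 lies between 8.39 and 23.9 in all 6 PDGFRa+ samples and at most at 0.495 in the other 6, and Fgfr3 lies at 184 to 275 in DCs and at 39.0 or below elsewhere.

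Against DCs, 5 of 8 tested members differed in PDGFRa+SCA1+ cells, beside 23.8% of all genes tested. Of these 3 rose and 2 fell, beside 9.85% and 14.0% of all genes. In PDGFRa+SCA1- cells 5 of 8 differed, beside 28.8%, of which 3 rose and 2 fell, beside 9.98% and 18.9%. In PDGFRa-SCA1+ cells 4 of 8 differed from DCs, beside 22.8%, and all 4 fell, beside 11.5% of genes that rose and 11.3% that fell. The 3 comparisons share the DC samples. Between both PDGFRa+ fractions limma called 0 of 8 members, beside 0.587% of all genes (0.435% higher and 0.153% lower in PDGFRa+SCA1+ cells), and 1 member, Fgf1, had an unadjusted p under 0.05. Fgf2, Fgf7 and Fgf18 reached a value of 1 in stroma alone and so passed the filter through it, which makes a call against DCs likely for these 3 and their counts no support of their own.

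Fgf2, a heparin-bound mitogen of many mesenchymal cells, was the ligand whose level separated PDGFRa+ cells most evenly. Its level was 8.39, 16.7 and 23.9 in PDGFRa+SCA1+ and 13.5, 16.5 and 21.9 in PDGFRa+SCA1- cells, in the order of mice A, E and F. In DCs it was 0.0203, 0.0233 and 0.495, and in PDGFRa-SCA1+ cells 0.0203, 0.0233 and 0. All PDGFRa+ samples lay above all other samples, and both PDGFRa+ fractions overlapped. The log2 difference from DCs was 3.79 ± 0.53 (SE; limma adjusted p = 0.000196) in PDGFRa+SCA1+ and 3.95 ± 0.53 (SE; limma adjusted p = 0.000133) in PDGFRa+SCA1- cells, and no fold of means is given because mice A and E held 1 read each in DCs, against 21 reads in mouse F. PDGFRa-SCA1+ cells lay below PDGFRa+SCA1+ cells by a log2 difference of -3.98 and below PDGFRa+SCA1- cells by -4.15 (limma adjusted p = 0.000196 and 0.000138). Exons of Fgf2 share 640 bases, 9.44% of its exonic length, with the opposite-strand gene Nudt6, and reads of the 2 genes there cannot be told apart because the libraries keep no strand.

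Fgf7, the keratinocyte growth factor, had 0 or 1 read in each of the DC and PDGFRa-SCA1+ samples. It was 13.2, 20.5 and 33.3 in PDGFRa+SCA1+ cells, a log2 difference from DCs of 4.40 ± 1.02 (SE; limma adjusted p = 0.00755). In PDGFRa+SCA1- cells it held 698 and 278 reads in mice E and F and 0 reads in mouse A, so that the group overlapped DCs. The difference of 2.96 ± 1.02 (SE; limma adjusted p = 0.0477) in PDGFRa+SCA1- cells was lost without any 1 of 11 libraries (adjusted p of 0.0576 to 0.149), the exception being PDGFRa+SCA1- of mouse A. Between both PDGFRa+ fractions the log2 difference was 1.44 (95% interval -0.79 to 3.67; limma adjusted p = 0.652), and without mouse A of PDGFRa+SCA1- it was -0.068.

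Fgf10, the other ligand of the IIIb form of Fgfr2, was found in PDGFRa+SCA1+ cells alone. It held 27, 381 and 284 reads there in mice A, E and F, at levels of 0.841, 14.1 and 11.2, and 0 reads in each of the other 9 samples. The mean of PDGFRa+SCA1+ cells was at least 94.2-fold that of DCs, at least 78.9-fold that of PDGFRa+SCA1- and at least 88.0-fold that of PDGFRa-SCA1+ cells, with 3 reads per library as the floor. Fgf10 reached a value of 1 in too few samples to be tested, and its folds carry no p-value.

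Fgf18, a ligand of Fgfr3 and of IIIc forms, was among the most abundant ligands of PDGFRa+ cells. Its level was 22.6, 52.8 and 18.3 in PDGFRa+SCA1+ and 49.7, 80.5 and 0 in PDGFRa+SCA1- cells. DCs held 0, 1 and 0 reads, and PDGFRa-SCA1+ cells held 102, 1 and 2. Thus mouse F lacked Fgf18 reads in PDGFRa+SCA1- cells, and mouse A was the one with a clear level, 15.6, in PDGFRa-SCA1+ cells. The PDGFRa+SCA1- sample of mouse F also stood apart in its markers, with stellate cell markers at a sum of 3168 against 7978 and 8887 in mice A and E, mesenchymal markers at 30499 against 53462 and 52581, and smooth muscle markers at 2798 against 1245 and 1908, and their part in the missing Fgf18 was not tested. Against DCs, PDGFRa+SCA1+ cells differed by 4.81 ± 1.46 on the log2 scale (SE; limma adjusted p = 0.0313), and leaving out any 1 of the 6 libraries compared ended this call (adjusted p of 0.0603 to 0.106). For PDGFRa+SCA1- cells the log2 difference was 3.95 ± 1.46 (SE; limma adjusted p = 0.0620), and it passed with mouse as a block (adjusted p = 0.0439), or at 0.00134 without the PDGFRa+SCA1- sample of mouse F.

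Fgf1, which has no signal peptide and binds every FGF receptor, was the leading ligand of DCs and, by mean share, of PDGFRa-SCA1+ cells. Its shares of their ligand sums were 81.1% ± 14.0 and 76.4% ± 37.5 (SD, n = 3). In PDGFRa-SCA1+ cells of mouse A, however, Fgf18 led at 66.6% and Fgf1 had 33.2%. The level of Fgf1 was 5.003, 4.87 and 3.33 in DCs, 7.78, 7.12 and 20.3 in PDGFRa-SCA1+, 20.5, 6.41 and 4.81 in PDGFRa+SCA1+, and 0, 0.0366 and 8.95 in PDGFRa+SCA1- cells. The groups overlapped except DCs with PDGFRa-SCA1+ cells, and limma called no difference. PDGFRa+SCA1+ cells stood 2.16 log2 above PDGFRa+SCA1- cells (limma adjusted p = 0.363), which passed at an adjusted p of 0.0482 without the PDGFRa+SCA1- sample of mouse F. Fgf9, a ligand of Fgfr3 and of IIIc forms, held 66, 6 and 0 reads in DCs, 0, 48 and 10 in PDGFRa+SCA1+, at most 1 in PDGFRa-SCA1+ and 0 in PDGFRa+SCA1- cells.

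Among receptors, Fgfr3 and Fgfr4 marked DCs. Fgfr3, a receptor that binds Fgf9 and Fgf18 well, was 275, 184 and 213 in DCs. It was 11.1, 11.05 and 11.8 in PDGFRa+SCA1+, 7.55, 16.8 and 12.9 in PDGFRa+SCA1- and 39.0, 23.4 and 21.7 in PDGFRa-SCA1+ cells. The DC samples lay above all others, and PDGFRa-SCA1+ samples lay above all PDGFRa+ samples. Ductal markers summed to 79.3 to 3784 in PDGFRa-SCA1+ and to at most 380 in PDGFRa+ cells, and their part in Fgfr3 was not tested. The mean of DCs was 19.8-fold, 18.03-fold and 7.999-fold that of PDGFRa+SCA1+, PDGFRa+SCA1- and PDGFRa-SCA1+ cells, with log2 differences of -4.17, -4.11 and -2.98 from DCs (limma adjusted p = 4.51e-06, 4.95e-06 and 6.75e-05). PDGFRa-SCA1+ cells stood above PDGFRa+SCA1+ and PDGFRa+SCA1- cells by log2 1.19 and 1.13 (limma adjusted p = 0.0371 and 0.0427), and with the mouse as a block these p-values were 0.0638 and 0.0684. Leaving out any 1 of 8 libraries for the former and of 10 for the latter also ended the call (adjusted p of 0.0562 to 0.134 and 0.0550 to 0.145). Exons of Fgfr3 share 998 bases, 13.9% of their length, with the opposite-strand gene G630022F23Rik.

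Fgfr4, best known from hepatocytes, was 69.4, 46.0 and 43.5 in DCs, 2.81, 3.24 and 4.57 in PDGFRa+SCA1+, 0, 2.85 and 12.7 in PDGFRa+SCA1- and 2.505, 0 and 1.33 in PDGFRa-SCA1+ cells. DCs lay above all stroma samples, with log2 differences of -3.56, -3.82 and -4.71 from DCs in that order (limma adjusted p = 0.00782, 0.00461 and 0.00125). The 5 hepatocyte markers summed to 5781 to 6916 in the same DC samples, 975 to 2445 in PDGFRa+SCA1+, 850 to 1554 in PDGFRa+SCA1- and 2089 to 6413 in PDGFRa-SCA1+ cells, and their part in the level of Fgfr4 was not tested.

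Fgfr1, the main receptor of many mesenchymal cells, was high in DCs and in PDGFRa+ cells, and limma called no difference among these. Its level was 134, 156 and 125 in DCs, 113, 141 and 191 in PDGFRa+SCA1+, 190, 183 and 193 in PDGFRa+SCA1- and 23.5, 26.5 and 22.1 in PDGFRa-SCA1+ cells. All PDGFRa+SCA1- samples still lay above all DC samples, at 1.37-fold in means. With the reuse of sample totals in the deposited values undone, the means were 116 in DCs, 142 in PDGFRa+SCA1+ and 190 in PDGFRa+SCA1- cells. All PDGFRa+SCA1+ samples (121, 159 and 147) then also lay above all DC samples (119, 116 and 113). PDGFRa-SCA1+ cells lay below every other sample, by log2 -2.47 ± 0.24 from DCs, -2.55 ± 0.24 from PDGFRa+SCA1+ and -2.93 ± 0.24 from PDGFRa+SCA1- cells (SE; limma adjusted p = 1.22e-05, 1.53e-05 and 4.90e-06).

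Fgfr2, the receptor of Fgf7 and Fgf10, stood in an order with no overlap between fractions. It was 109, 153 and 117 in PDGFRa+SCA1-, 85.2, 85.4 and 95.3 in PDGFRa+SCA1+, 38.1, 27.7 and 42.6 in DCs and 0.469, 0.0521 and 6.40 in PDGFRa-SCA1+ cells. The step from DCs to PDGFRa+SCA1- cells was log2 1.78 ± 0.58 (SE; limma adjusted p = 0.0371), and leaving out any 1 of the 9 libraries of DCs and PDGFRa+ cells ended it (adjusted p of 0.0514 to 0.117). The step from DCs to PDGFRa+SCA1+ cells was log2 1.29 (95% interval 0.03 to 2.56; limma adjusted p = 0.136), with an adjusted p of 0.00849 without PDGFRa-SCA1+ of mouse F. This step also passed with quantile normalization and with only the groups compared (limma adjusted p of 0.00212 to 0.0128). The step between both PDGFRa+ fractions was log2 -0.49 (95% interval -1.76 to 0.77; limma adjusted p = 0.814). PDGFRa-SCA1+ cells lay below DCs by log2 -4.02, below PDGFRa+SCA1+ by -5.31 and below PDGFRa+SCA1- by -5.81 (limma adjusted p = 0.000278, 4.77e-05 and 2.44e-05).

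In terms of makeup, both PDGFRa+ fractions had like receptor profiles, unlike those of DCs and PDGFRa-SCA1+ cells. Shares are on the per-length scale that allows genes to be set side by side. Fgfr3 was 49.3% ± 4.41 and Fgfr1 31.0% ± 6.00 of the receptor sum in DCs (SD, n = 3). Fgfr1 and Fgfr2 together filled the sums of PDGFRa+ cells, at 57.0% ± 5.32 and 37.8% ± 4.56 in PDGFRa+SCA1- and 58.3% ± 4.90 and 35.7% ± 4.32 in PDGFRa+SCA1+ cells (SD, n = 3). PDGFRa-SCA1+ cells had a lower sum made of Fgfr3 at 49.5% ± 9.03 and Fgfr1 at 43.9% ± 8.67 (SD, n = 3). Correcting the reused totals of the table moved no receptor share by more than 7.89 percentage points. Against PDGFRa+SCA1+ cells, 5 of 8 members differed in PDGFRa-SCA1+ cells, beside 18.8% of all genes, of which 1 was higher and 4 lower, beside 10.9% and 7.86%. Against PDGFRa+SCA1- cells, 4 of 8 differed in PDGFRa-SCA1+ cells, beside 21.5%, of which 1 was higher and 3 lower, beside 14.2% and 7.24%. Besides those already given, Fgf7 differed, by log2 -4.43 in PDGFRa-SCA1+ from PDGFRa+SCA1+ cells (limma adjusted p = 0.00913). Fgf2 and Fgf7 reached a value of 1 in PDGFRa+ cells alone and passed the filter through them. Their calls between PDGFRa-SCA1+ and PDGFRa+ cells were thus likely, and the counts that include them are no support of their own. The smooth muscle markers summed to 1245 to 2798 in PDGFRa+SCA1- against 134 to 175 in PDGFRa+SCA1+ cells and the stellate cell markers to 3168 to 8887 against 2440 to 2693, and their part in the values of either fraction was not tested.

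**Figure D2:**
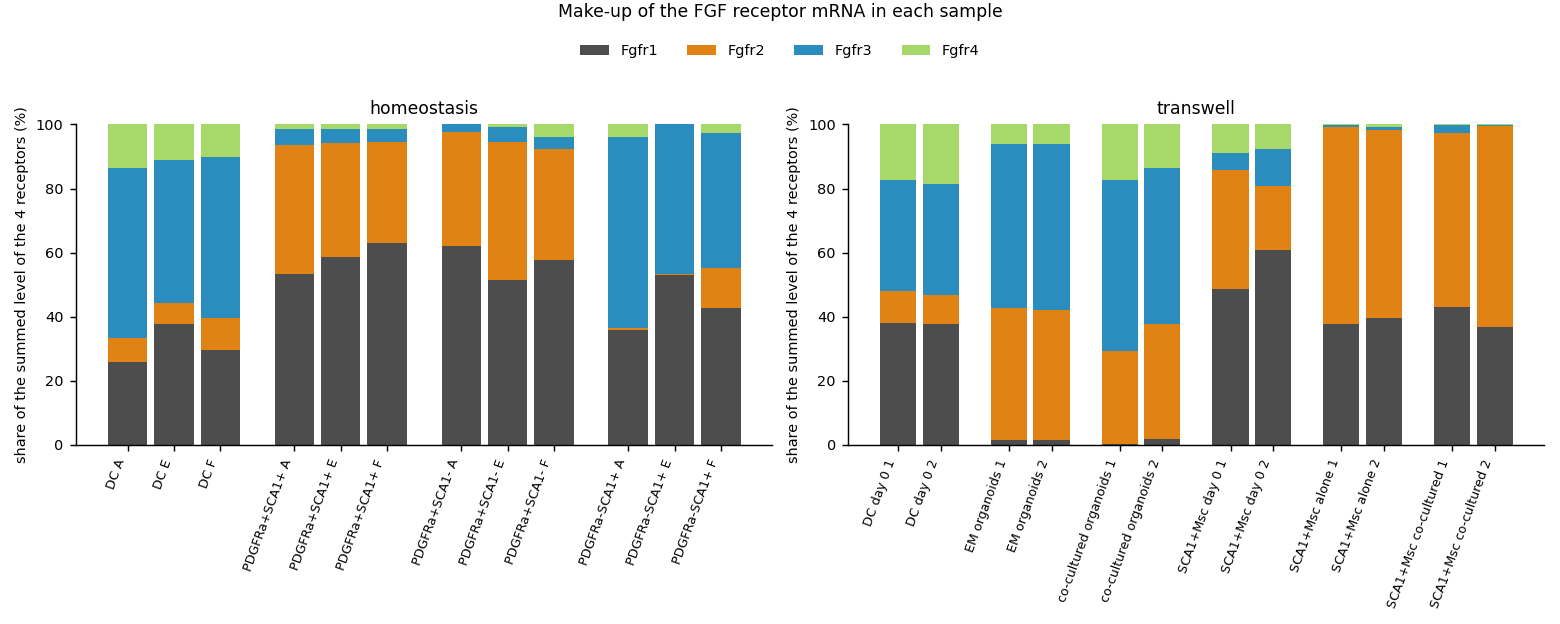
Share of each receptor in the summed level of Fgfr1 to Fgfr4, in percent, in every sample of both experiments (stacked bars, each adding to 100%). Fgfr1 has a mean share of 37.8% in DCs at day 0, 1.48% in EM organoids and 1.06% in co-cultured organoids, and Fgfr2 one of 60.1% in SCA1+Msc alone and 58.4% in SCA1+Msc co-cultured.

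Of 16 other FGF genes, 9 reached a mean of 1 in a homeostasis fraction. The hormone gene Fgf23, which controls phosphate, was 7.07 to 78.6 in PDGFRa+SCA1+ and 0 in DCs (log2 4.38 ± 0.98, SE; limma adjusted p = 0.00588). Fgf14 was 2.64 to 5.58 in PDGFRa+SCA1+ cells and at most 0.0407 in DCs, and Fgf16 was 2.69 to 8.95 in PDGFRa+SCA1- cells and 0 in DCs, and both passed the test against DCs. Fgf14, Fgf16 and Fgf23 reached a value of 1 in PDGFRa+ cells alone and passed the filter through them. A call against DCs was thus likely for each, and these calls are no support of their own. Fgf12, which like Fgf14 is an intracellular partner of sodium channels, was a gene of DCs, at 10.03 to 19.6 against at most 2.76 in the stroma, and was lower in all 3 stroma fractions. The other 5, Fgf11, Fgf13, Fgf17, Fgf21 and Fgf22, had their highest fraction means at 4.28 (PDGFRa+SCA1+), 1.08 (PDGFRa-SCA1+), 2.02 (DCs), 2.88 (PDGFRa+SCA1+) and 1.57 (DCs).

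Of the 15 co-receptors and binding proteins, 12 were tested, and 5 rose and 2 fell in PDGFRa+SCA1+ cells against DCs, 7 rose and 3 fell in PDGFRa+SCA1- cells, and 2 rose and 5 fell in PDGFRa-SCA1+ cells. Beside these 7, 10 and 7 of 12 stand 23.8%, 28.8% and 22.8% of all genes called. The glypican Gpc6 was 51.3 to 54.7 in PDGFRa+SCA1+ and 36.2 to 53.3 in PDGFRa+SCA1- cells against at most 0.353 in DCs. Fgfbp1, a carrier that frees FGFs from heparan sulfate, was 4.37 to 12.5 in DCs and 0 in all 9 stroma samples. Gpc6 thus passed the filter through stroma alone and Fgfbp1 through DCs alone. A call between DCs and PDGFRa+ cells was likely for both, and the counts that include them are no support of their own. The decoy receptor Fgfrl1 was 9.53 to 19.1 in PDGFRa+SCA1+ and at most 2.16 in PDGFRa+SCA1- cells, the 1 listed gene that differed between them (log2 3.25 ± 0.56, SE; limma adjusted p = 0.0273, and 0.0665 with the mouse as a block), and leaving out any 1 of the 6 libraries of DCs and PDGFRa+SCA1+ cells ended this call (adjusted p of 0.0658 to 0.150).

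Of the 10 heparan sulfate enzymes, all were tested, and 3 rose and 2 fell in PDGFRa+SCA1+ cells against DCs, 3 rose and 3 fell in PDGFRa+SCA1- cells, and 2 rose and 2 fell in PDGFRa-SCA1+ cells. Beside these 5, 6 and 4 of 10 stand 23.8%, 28.8% and 22.8% of all genes called, and 1 of the falls in PDGFRa-SCA1+ cells, that of Hs2st1, was lost with the mouse as a block (limma adjusted p = 0.0450, blocked 0.0622). Sulf2, which strips sulfate from heparan sulfate outside the cell, was 20.2 to 35.9 in PDGFRa+SCA1+ and 35.7 to 88.3 in PDGFRa+SCA1- cells against at most 1.75 in DCs. Hs3st1, a sulfotransferase, was 1226 to 1540 in DCs and 2.94 to 40.6 in PDGFRa+ cells. Of 8 adaptors, Plcg1, the phospholipase that binds activated receptors, was higher in each stroma fraction than in DCs, the single adaptor to rise in each. No adaptor fell in PDGFRa+ cells, and the 2 that fell in PDGFRa-SCA1+ cells, Frs2 and Shc1 (limma adjusted p = 0.0429 and 0.0300), were lost with the mouse as a block (0.0646 and 0.0514). These 1, 1 and 3 of 8 stand beside 23.8%, 28.8% and 22.8% of all genes called.

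Of the 15 feedback targets, genes that ERK signalling from FGF and other receptors induces, 14 were tested. Against DCs, 2 rose and 4 fell in both PDGFRa+SCA1+ and PDGFRa+SCA1- cells, and 1 rose and 2 fell in PDGFRa-SCA1+ cells. Of all genes, 9.85%, 9.98% and 11.5% rose and 14.0%, 18.9% and 11.3% fell in these comparisons. With the mouse as a block Etv1 and Flrt3, named after their values were seen, also passed in PDGFRa+SCA1- cells (adjusted p = 0.0235 and 0.0481). Spry1, an inhibitor of receptor signalling, was 155 to 171 in PDGFRa+SCA1+ and 78.0 to 188 in PDGFRa+SCA1- against 36.2 to 41.5 in DCs. The phosphatase Dusp6 was 204 to 258 in DCs, 27.1 to 51.0 in PDGFRa+SCA1+ and 348 to 503 in PDGFRa-SCA1+ cells. Etv4, an ETS factor, was 5.82 to 10.6 in DCs and at most 1.66 in the stroma. The median log2 difference of the list was -0.57 in both PDGFRa+ fractions and -0.40 in PDGFRa-SCA1+ cells, beside -0.28, -0.47 and -0.04 over all genes in PDGFRa+SCA1+, PDGFRa+SCA1- and PDGFRa-SCA1+ cells.

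In the transwell experiment, sorted DCs lost Fgfr1 in both cultures. Fgfr1 was 126 and 133 TPM at day 0, 6.02 and 6.74 TPM in EM organoids and 0.249 and 1.83 TPM in co-cultured organoids. None of the 3 groups overlapped, and the mean fell 20.2-fold in EM organoids. The log2 differences were -4.14 ± 0.32 in EM and -6.11 ± 0.32 in co-cultured organoids against day 0, and -1.97 ± 0.32 between the organoids (SE; limma adjusted p = 7.99e-06, 1.02e-06 and 0.00338). The mesenchymal markers summed to 75.9 to 98.2 TPM in DCs at day 0, 2.02 to 7.78 in EM and 2.89 to 17.7 TPM in co-cultured organoids, with up to 3 of 7 at 0 in an EM library, and their part in the loss of Fgfr1 was not tested. The sum of stellate cell markers was 35.0 to 41.8 TPM at day 0, 137 to 141 TPM in EM and 659 to 796 TPM in co-cultured organoids, most of it Ecm1 (658 and 796 TPM in the last), with Lrat and Colec11 at 0 in both co-cultured libraries, and its part was not tested either. Each of these comparisons called 3 of 10 members. In EM organoids against day 0, 1 rose and 2 fell, beside 44.4% of all genes called (27.1% higher and 17.2% lower). In co-cultured organoids against day 0 all 3 fell, beside 42.3% of all genes called (23.2% higher and 19.1% lower). In co-cultured against EM organoids all 3 were lower, beside 12.9% of all genes called (5.73% higher and 7.21% lower).

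Fgfr2 rose in EM organoids and did not pass the test in co-cultured organoids. It was 33.2 and 31.7 TPM in DCs at day 0, 171 and 182 TPM in EM organoids and 22.4 and 36.7 TPM in co-cultured organoids. EM organoids stood apart from both other groups, which overlapped. The log2 difference was 2.41 ± 0.30 for EM organoids against day 0 and -2.58 ± 0.30 for co-cultured against EM organoids (SE; limma adjusted p = 0.000149 and 0.000523).

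Fgfr3 was 115 and 122 TPM at day 0, 212 and 232 TPM in EM organoids and 41.2 and 49.8 TPM in co-cultured organoids, with no overlap. Co-cultured organoids lay below EM organoids by log2 -2.27 ± 0.49 (SE; limma adjusted p = 0.0149), which leaving out any 1 of their 4 libraries ended (adjusted p of 0.0606 to 0.0989). They lay below day 0 by log2 -1.37 ± 0.49 (SE; limma adjusted p = 0.0483), which any 1 of 8 libraries, those of DCs, organoids and SCA1+Msc alone, ended (adjusted p of 0.0666 to 0.180). The rise in EM organoids was log2 0.90 (95% interval -0.200 to 2.002; limma adjusted p = 0.171), and it passed at 0.0393 and 0.0406 without either library of SCA1+Msc co-cultured. This rise also passed with only the groups compared and with RPKM as deposited (limma adjusted p of 0.000958 to 0.0357).

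Fgfr4 was 57.9 and 65.7 TPM at day 0, 24.9 and 28.1 TPM in EM organoids and 13.4 and 13.8 TPM in co-cultured organoids, again with no overlap. It fell by 1.19 in EM and by 2.10 in co-cultured organoids on the log2 scale (limma adjusted p = 0.00756 and 0.000316), the former ended without DC day 0 replicate 2 or EM organoids replicate 1 (adjusted p = 0.0510 and 0.0513). The difference between the organoids was log2 -0.91 (95% interval -1.55 to -0.26; limma adjusted p = 0.0716), and it passed at 0.0257 and 0.0271 without either library of SCA1+Msc alone. This difference also passed with only the groups compared and with RPKM as deposited (limma adjusted p of 0.0192 to 0.0205). The hepatocyte markers were lower alongside, with sums of 4203 to 5311 TPM at day 0, 1514 to 1626 TPM in EM and 176 to 377 TPM in co-cultured organoids, and their part in the fall of Fgfr4 was not tested. The summed receptor level was 342 ± 14.8 at day 0, 432 ± 24.6 in EM and 89.7 ± 17.6 TPM in co-cultured organoids (SD, n = 2).

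Ligands stayed low in the epithelium. They summed to 3.85 ± 0.94 at day 0, 3.87 ± 2.62 in EM and 2.67 ± 0.33 TPM in co-cultured organoids (SD, n = 2). Fgf7 and Fgf10 held 0 reads in all 6 ductal samples. Fgf1 was 2.05 and 3.58 TPM at day 0, 0.694 and 0.438 TPM in EM and 2.19 and 1.46 TPM in co-cultured organoids, and Fgf2, Fgf9 and Fgf18 did not pass 2.60 TPM in any ductal sample.

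**Figure D3:**
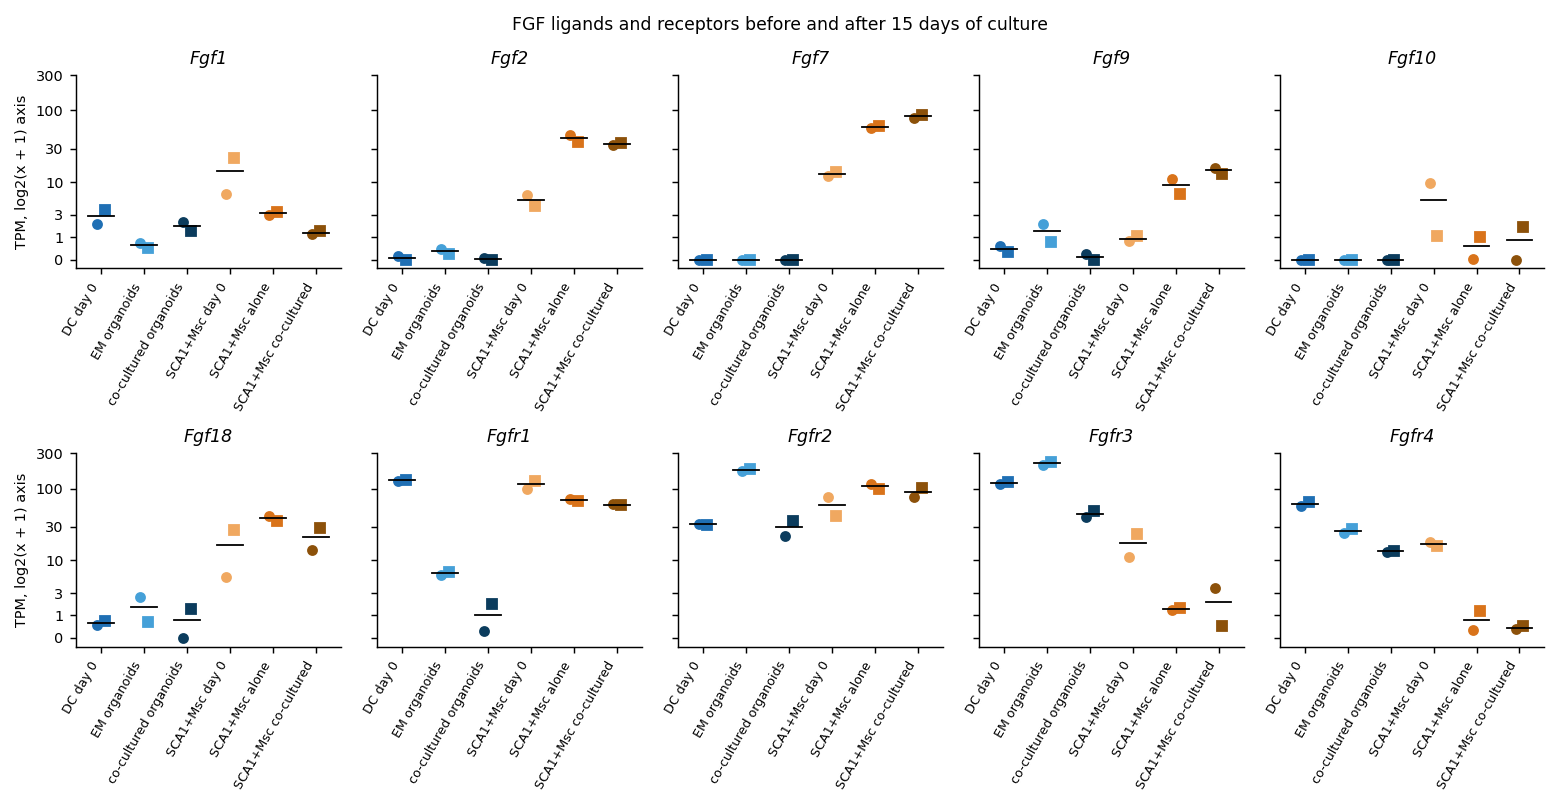
Level of each FGF ligand and receptor in both replicates of the 6 transwell groups (points), with the group mean as a short line, in TPM on a log2(x + 1) axis. Fgf7 is at 0 in all 6 ductal samples and reaches 78.0 and 87.2 in co-cultured SCA1+Msc, and Fgfr1 falls from 126 and 133 to 6.74 or less in organoids.

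In SCA1+Msc the 6 ligands summed to 55.5 ± 20.5 TPM at day 0, 154 ± 11.1 TPM alone and 156 ± 17.1 TPM co-cultured (SD, n = 2). Against day 0, 7 of 10 members differed in SCA1+Msc alone, beside 44.8% of all genes, of which 4 rose and 3 fell, beside 27.4% and 17.5%. In SCA1+Msc co-cultured 7 of 10 differed, beside 43.3%, of which 3 rose and 4 fell, beside 26.0% and 17.3%. Both comparisons share the day 0 samples. Between SCA1+Msc co-cultured and alone limma called 0 of 10 members, with 0 at an unadjusted p under 0.05, beside 0.127% of all genes (0.0937% higher and 0.0331% lower). The shift of cell makeup noted above runs through all comparisons with day 0, with hepatocyte marker sums of 17689 to 22237 TPM before and at most 411 TPM after culture and smooth muscle marker sums of 583 to 795 before and 3166 to 3935 TPM after it, and its part in these results was not tested.

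Fgf7 was 12.3 and 13.9 TPM in SCA1+Msc at day 0, 58.3 and 61.7 TPM alone and 78.0 and 87.2 TPM co-cultured. The 3 groups did not overlap. It rose by log2 2.12 ± 0.23 alone and 2.57 ± 0.23 co-cultured (SE; limma adjusted p = 8.44e-05 and 2.63e-05). The difference of co-cultured from alone was log2 0.45 (95% interval -0.07 to 0.98; limma adjusted p = 0.777). As a share of all 6 ligands Fgf7 was 24.9% ± 7.07 at day 0, 39.0% ± 4.32 alone and 53.1% ± 1.67 co-cultured (SD, n = 2).

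Fgf2 was 6.28 and 4.30 TPM at day 0, 46.7 and 37.6 TPM alone and 34.1 and 35.6 TPM co-cultured. It rose by log2 2.79 ± 0.28 and 2.53 ± 0.28 (SE; limma adjusted p = 4.98e-05 and 9.44e-05), 7.96-fold and 6.59-fold in means. Fgf9 was 0.762 and 1.06 TPM at day 0, 11.2 and 6.72 TPM alone and 16.2 and 13.3 TPM co-cultured, a rise of log2 2.35 ± 0.37 and 3.04 ± 0.37 (SE; limma adjusted p = 0.000748 and 0.000167). In freshly sorted PDGFRa+ cells of the other experiment Fgf9 had not passed 1.92. Between co-cultured and alone Fgf9 differed by log2 0.69 (95% interval -0.15 to 1.53; limma adjusted p = 0.803).

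Fgf1 fell in culture, and the level of Fgf10 rested on single libraries. Fgf1 was 6.50 and 22.4 TPM at day 0, 3.0004 and 3.36 TPM alone and 1.19 and 1.43 TPM co-cultured. It fell by 1.67 alone and by 2.52 co-cultured on the log2 scale (limma adjusted p = 0.0201 and 0.00249), the former ended without SCA1+Msc day 0 replicate 2 or either library of SCA1+Msc alone (adjusted p of 0.0651 to 0.107). Fgf10 held 272 and 29 reads at day 0, 1 and 34 reads alone and 0 and 57 reads co-cultured, at 9.61 and 1.05, 0.0283 and 1.004, and 0 and 1.72 TPM. The groups overlapped or nearly met, and no test between them passed. Fgf18 was 5.61 and 27.3 TPM at day 0, 42.9 and 36.3 TPM alone and 14.2 and 28.8 TPM co-cultured, and no test between these groups passed.

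Among the receptors of SCA1+Msc, Fgfr3 and Fgfr4 fell in both cultures. Fgfr3 was 11.3 and 23.9 TPM at day 0, 1.38 and 1.56 TPM alone and 3.68 and 0.426 TPM co-cultured, a fall by 2.82 and by 2.76 on the log2 scale (limma adjusted p = 0.00127 and 0.00150). Fgfr4 was 18.2 and 16.2 TPM at day 0, 0.258 and 1.27 TPM alone and 0.312 and 0.430 TPM co-cultured, a fall by 3.43 and by 3.73 (limma adjusted p = 1.52e-05 and 9.99e-06). Fgfr1 was 100 and 128 TPM at day 0, 71.6 and 67.2 TPM alone and 61.3 and 59.7 TPM co-cultured. Its fall by 0.89 in co-culture (limma adjusted p = 0.0454) was lost when any 1 of 10 libraries was left out (adjusted p of 0.0569 to 0.180). Fgfr2 was 76.5 and 41.7 TPM at day 0, 117 and 99.6 TPM alone and 76.8 and 102 TPM co-cultured. Its rise of log2 0.92 ± 0.30 alone (SE; limma adjusted p = 0.0298) ended without SCA1+Msc day 0 replicate 2 or either library of SCA1+Msc alone (adjusted p of 0.0655 to 0.192). Of the receptor sum, Fgfr1 was 54.8% ± 8.71 and Fgfr2 28.5% ± 12.2 at day 0, and Fgfr1 was 38.6% ± 1.38 and Fgfr2 60.1% ± 1.94 alone (SD, n = 2).

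**Figure D4:**
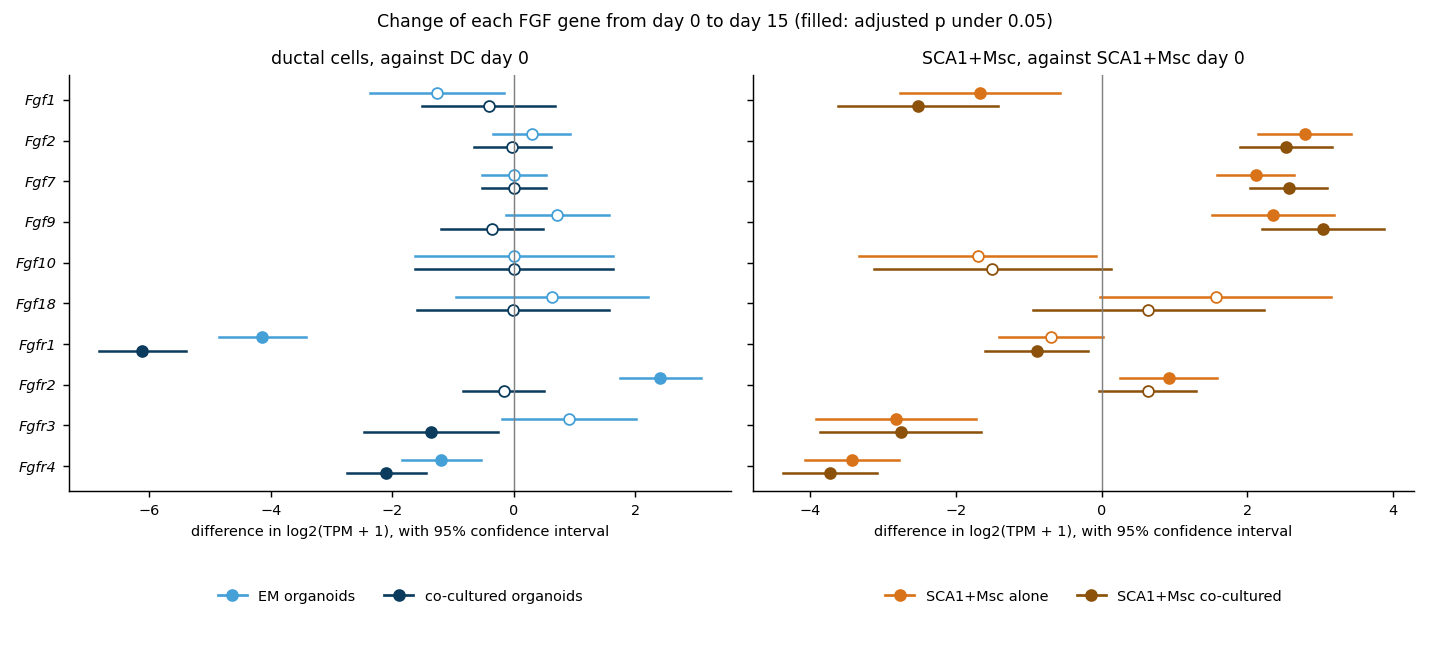
Log2 difference from day 0 of each member in EM and co-cultured organoids (against DCs at day 0) and in SCA1+Msc alone and co-cultured (against SCA1+Msc at day 0), with the limma 95% confidence interval as bars and filled points where the adjusted p is under 0.05. Fgf2, Fgf7 and Fgf9 are higher in both stromal cultures, Fgfr1 lies at -4.14 and -6.11 in the organoids, and Fgfr4 is lower in all 4 cultures.

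The 2 cell types facing each other in the transwell were also compared directly. Fgf2, Fgf7 and Fgf10 reached 1 TPM in stroma alone and passed the filter through it, so that their calls here add little to their levels. At day 0, 7 of 10 members differed between SCA1+Msc and DCs, beside 46.1% of all genes, and 5 were higher and 2 lower in SCA1+Msc, beside 21.4% and 24.7%. At day 15, 8 of 10 differed between SCA1+Msc co-cultured and co-cultured organoids, beside 36.7%, and 6 were higher and 2 lower in SCA1+Msc, beside 17.7% and 19.0%. At day 15 the mean of Fgf7 in the stroma was at least 732-fold that of the organoids above it, where Fgf9 held 7 and 0 reads and Fgf18 0 and 13 reads, and Fgf2 stood at 34.1 and 35.6 against 0.0659 and 0 TPM. Receptors were split, with Fgfr1 higher in the stroma by log2 5.03 ± 0.32 and Fgfr2 by 1.59 ± 0.30, and Fgfr3 and Fgfr4 lower, with differences of -4.16 ± 0.49 and -3.42 ± 0.29 (SE; limma adjusted p = 1.27e-06, 0.00203, 0.000102 and 9.57e-06). At day 0 Fgfr1 had been 100 and 128 TPM in the stroma against 126 and 133 TPM in DCs. Also at day 0, the mean of Fgf7 in SCA1+Msc was at least 103-fold that of DCs, and Fgf2, Fgf18, Fgf1 and Fgf10 were higher by log2 2.56, 3.11, 1.83 and 2.22 (limma adjusted p = 6.56e-05, 0.00505, 0.0123 and 0.0302). The last 2 calls rest on few libraries, since that of Fgf1 ended without DC day 0 replicate 1 or SCA1+Msc day 0 replicate 2 (adjusted p of 0.0594 to 0.0820) and that of Fgf10 without either DC library or SCA1+Msc day 0 replicate 1 (adjusted p of 0.102 to 0.201). Fgfr3 and Fgfr4 were lower in SCA1+Msc than in DCs at day 0, with log2 differences of -2.77 and -1.79 (limma adjusted p = 0.00123 and 0.000696).

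Whether day 0 to day 15 of co-culture moved a member differently in the epithelium and in the stroma was tested as the difference of both changes. The stromal change also spans 7 days of expansion on plastic before co-culture, and limma called 0 of 10 members between SCA1+Msc co-cultured and alone. In these differences co-culture can thus not be told apart from culture as such. The test passed for 6 of 10 members, beside 28.3% of all genes, with 2 positive and 4 negative differences, beside 13.8% and 14.5%. Fgfr1 fell by 5.22 more in the epithelium on the log2 scale (SE 0.45; limma adjusted p = 5.72e-05). For Fgf2, Fgf7 and Fgf9 the differences restate their rise in the stroma, since the ductal samples compared held at most 6, 0 and 20 reads of them and these genes could not fall there by much. Their values were -2.55 ± 0.40, -2.57 ± 0.33 and -3.40 ± 0.53 (SE; limma adjusted p = 0.00152, 0.000522 and 0.00148). Fgfr4 fell in both, by 2.10 in the epithelium and by 3.73 in the stroma, a difference of 1.63 (limma adjusted p = 0.0155) that ended without DC day 0 replicate 1 (adjusted p = 0.0549). For Fgf1 the difference was 2.10 (limma adjusted p = 0.0481), and it was lost when any 1 of 11 libraries was left out (adjusted p of 0.0644 to 0.139).

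Of the 16 other FGF genes, 8 reached a mean of 1 in a transwell group. Fgf23 was 13.6 to 21.2 TPM in SCA1+Msc at day 0, 4.04 to 4.74 TPM alone and 9.66 to 20.3 TPM co-cultured, and 0 in both kinds of organoid. The fall in SCA1+Msc alone was 1.74 ± 0.41 on the log2 scale (SE; limma adjusted p = 0.00708), and it was lost with a pseudocount of 0.1 (adjusted p = 0.0868). Fgf12 fell from 8.60 to 12.5 TPM in DCs at day 0 to 0 in co-cultured organoids, and Fgf11 rose to 11.3 to 14.0 TPM in co-cultured SCA1+Msc. The rise of Fgf11 was lost with a pseudocount of 0.1 (limma adjusted p = 0.0600). Fgf13 was 3.23 to 7.72 TPM in co-cultured organoids, and Fgf14, Fgf16, Fgf17 and Fgf21 had their highest group means at 1.16, 1.013, 1.49 (all SCA1+Msc day 0) and 2.94 TPM (DCs at day 0).

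Of the co-receptors and binding proteins, 14 were tested in the transwell experiment. Against day 0, 6 rose and 1 fell in EM organoids, 3 rose and 2 fell in co-cultured organoids, 4 rose and 2 fell in SCA1+Msc alone and 4 rose and 3 fell in SCA1+Msc co-cultured. These 7, 5, 6 and 7 of 14 stand beside 44.4%, 42.3%, 44.8% and 43.3% of all genes called, a share near the background. Fgfbp1 was 0.0513 and 1.41 TPM in DCs at day 0, 4.09 and 6.43 TPM in EM organoids and 96.7 and 146 TPM in co-cultured organoids. It rose by log2 1.95 ± 0.45 and 6.23 ± 0.45 (SE; limma adjusted p = 0.00596 and 5.93e-06), and the co-cultured organoids lay above EM organoids by 4.28 (limma adjusted p = 0.000324). The syndecan Sdc1 was 28.8 to 37.5 TPM at day 0 and 316 to 331 TPM in co-cultured organoids, and Gpc3 was 293 to 323 TPM in EM organoids against 6.07 to 14.3 TPM in the co-cultured. Klb, a co-receptor of some hormone FGFs, was 2.93 to 3.52 TPM in SCA1+Msc at day 0 and 0 after culture.

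Of the 10 heparan sulfate enzymes, 3 rose and 2 fell in EM organoids, 3 rose and 3 fell in co-cultured organoids, 5 rose and 3 fell in SCA1+Msc alone and 4 rose and 3 fell in SCA1+Msc co-cultured. These 5, 6, 8 and 7 of 10 stand beside the same 44.4%, 42.3%, 44.8% and 43.3% of all genes. Sulf2 went from 1.24 to 1.52 TPM in DCs at day 0 to 40.2 to 41.6 TPM in EM and 26.0 to 31.8 TPM in co-cultured organoids. Hs3st1 fell in all 4 cultures, from a mean of 1265 TPM in DCs to 129 TPM in EM and 340.1 TPM in co-cultured organoids, the fall in co-cultured organoids ending without either DC library or co-cultured organoids replicate 1 (adjusted p of 0.0513 to 0.0551). Of the 8 adaptors, 1 rose and 2 fell in EM organoids, 1 rose and 4 fell in co-cultured organoids, and 3 rose and 1 fell in either stromal culture, which is 3, 5, 4 and 4 of 8 beside those same shares. In the stromal cultures Frs2, the docking protein of FGF receptors, went from 4.40 to 8.10 TPM to 18.4 to 24.9 TPM alone and 22.6 to 24.1 TPM co-cultured.

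Among feedback targets more genes fell than rose in each culture. Of 14 tested, 2 rose and 6 fell in EM organoids, 0 rose and 6 fell in co-cultured organoids, 0 rose and 6 fell in SCA1+Msc alone and 1 rose and 6 fell in SCA1+Msc co-cultured. Of all genes 27.1%, 23.2%, 27.4% and 26.0% rose and 17.2%, 19.1%, 17.5% and 17.3% fell in these comparisons. The median log2 difference of the list was -0.75, -0.78, -0.69 and -0.69 in these 4 comparisons, beside 0.12, 0, 0.19 and 0.17 over all genes. The phosphatase Dusp5 fell in every culture, from 934 and 1040 TPM in DCs to 59.1 TPM in each EM and 121 and 134 TPM in co-cultured organoids, and from 377 and 480 TPM in SCA1+Msc to 9.22 and 17.1 TPM alone and 11.9 and 21.9 TPM co-cultured. Spry4 fell in both kinds of organoid, from 8.59 to 14.1 TPM to 0.98995 to 1.89 TPM in EM and 0.723 to 1.22 TPM in co-cultured organoids. Spry1 was 86.1 to 124 TPM in SCA1+Msc at day 0 and 5.05 to 11.01 TPM after culture. The exceptions were Flrt3 and Etv1, which rose in EM organoids (limma adjusted p = 0.0224 and 0.0298), and Etv5, which rose to 14.2 to 15.7 TPM in co-cultured SCA1+Msc (limma adjusted p = 0.0340). Each of these 3 calls ended without some single library of its comparison, with adjusted p of 0.0692 to 0.169 for Flrt3 (DC day 0 replicate 1 or either EM library), 0.0907 to 0.181 for Etv1 (either DC library or EM organoids replicate 1) and 0.0915 to 0.199 for Etv5 (SCA1+Msc day 0 replicate 1 or either co-cultured library). In all 4 comparisons the day 0 cells were sampled just after digestion of the liver and sorting. This handling and culture can thus not be told apart in the changes of feedback targets. The marker shifts noted above run through these comparisons too, and their part was not tested. As background, feedback targets answer ERK signalling from many receptors and not from FGF receptors alone.

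**Figure D5:**
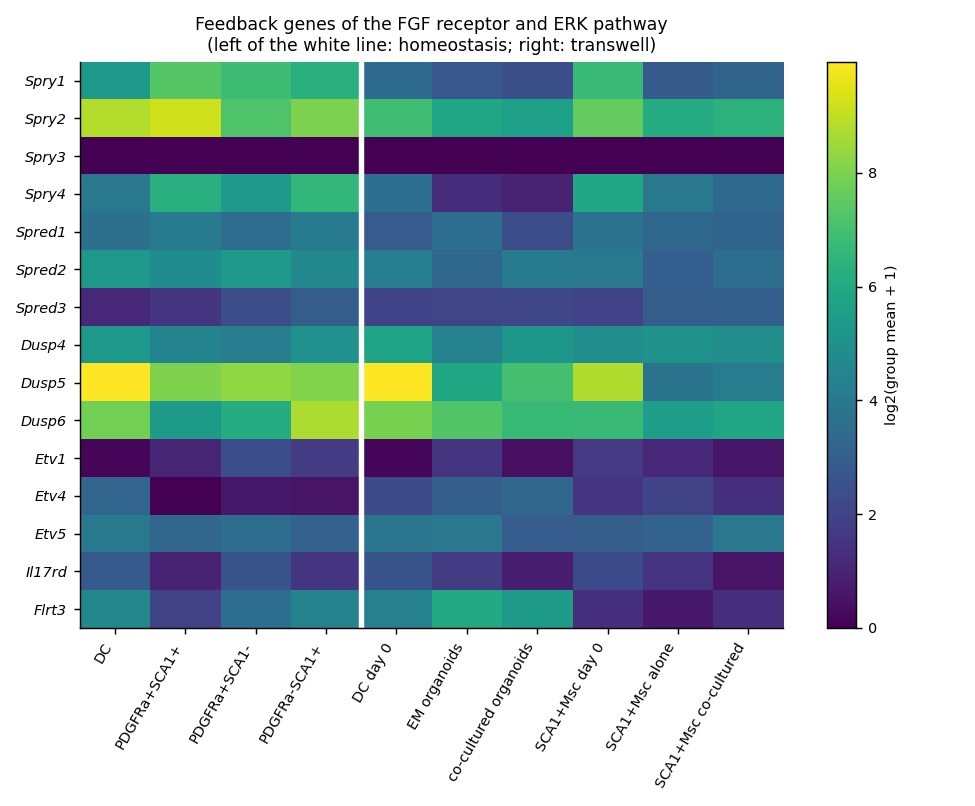
Mean level of each of the 15 feedback genes of the FGF receptor and ERK pathway in the 4 homeostasis fractions (deposited unit) and the 6 transwell groups (TPM), as log2(mean + 1) in colour. Dusp5 is highest in freshly sorted DCs of either experiment, with means of 988 and 987, and lies at 59.1 and 127 in organoids.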

How the data were processed

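The data were bulk Smart-seq2 RNA-seq libraries, 12 from the homeostasis and 12 from the transwell experiment. The authors aligned single-end reads with STAR 2.5.0a to GRCm38 and counted them per gene with featureCounts (1.6.0 in the submitters' notes), without strand. The authors deposited RPKM values for the transwell experiment, which were scaled here to TPM (a sum of 1000000 per sample). The homeostasis values, named TPM by the authors, sum to 0.847 to 1.17 times 1000000 per deposited column, because sample totals were reused down the table. They were used as deposited, as a signal, and not as the TPM that the planned test assumed, and undoing that reuse was an alternative. Whole reads were recovered within 0.02 of a read for 91.0% to 94.1% of values of up to 20 reads, which gave the depths and the floor of 3 reads, for counting error alone.

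Genes with a value of 1 or more in at least 3 (homeostasis, 17028 genes) or 2 (transwell, 18136 genes) samples were tested on log2(value + 1), with a pseudocount of 1, in 1 limma fit per experiment (limma 3.58.1, R 4.3.3; two-sided, Benjamini-Hochberg over all genes tested, threshold 0.05). Tables and figures were made with Python 3.11.15, numpy 2.4.6, pandas 2.3.3 and matplotlib 3.10.9, and the fit was tested on simulated data. Homeostasis letters pair the samples, since a letter is a mouse (mean correlation of deviations within a mouse 0.0187 to 0.0624). The sources do not tie a transwell replicate number to a mouse, so its p-values measure the spread between these samples, which may be technical. All members are named, with examples from the 2 largest rises and 2 largest falls of each pathway list and comparison, among genes that passed the test with no overlap between groups, and other FGF genes with a group mean of 1 or more. The members and lists were chosen with earlier results of these data known. The alternatives were a pseudocount of 0.1, no filter, quantile normalization, a block for mouse or replicate number, a fit of the compared groups alone, reuse undone or RPKM as deposited, and leaving out each library. For genes and counts of the pathway lists, these were added after seeing the data. Promoter sequences are from RefSeq.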

Additional observations from a re-analysis of the deposited data

Results flagged for a closer look

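For 6 members the change from day 0 to co-culture differed between ductal cells and SCA1+Msc in the test of the difference itself (ductal change minus stromal change on the log2 scale, limma). For Fgfr1 the difference was -5.22 ± 0.45 (SE; adjusted p = 5.72e-05), from changes of -6.11 in ductal cells and -0.89 in SCA1+Msc. For Fgf9 it was -3.40, from -0.36 and 3.04, for Fgf7 -2.57, from 0 and 2.57, and for Fgf2 -2.55, from -0.02 and 2.53. The ductal samples compared held at most 20, 0 and 6 reads of Fgf9, Fgf7 and Fgf2, so that these 3 differences restate the stromal change and do not show that the cell types respond differently. For Fgfr4 it was 1.63, from -2.10 and -3.73, and for Fgf1 2.10, from -0.42 and -2.52. Day 0 ductal cells and SCA1+Msc were sorted differently and hepatocyte markers summed to 4203 to 5311 and 17689 to 22237 TPM in them, and the part of these markers in the differences was not tested. The stromal changes also span 7 days of expansion on plastic before co-culture.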

How the results depend on the processing

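Of 67 member results that passed the test, 51 passed under every one of 18 alternatives, 16 were lost under at least 1 and 0 of these reversed. The difference of Fgf7 between PDGFRa+SCA1+ and PDGFRa+SCA1- cells, which had not passed, was 1.44 and ranged from -0.068 (without PDGFRa+SCA1- replicate A) to 2.55 (without replicate E) when 1 library was left out. PDGFRa+SCA1- against DC went from 5 to 3 with a pseudocount of 0.1 and to 3 with no filter, and EM organoids against DC at day 0 from 3 to 5 with only the groups compared; the cause was not tested.

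Leaving out 1 library gave 4 to 6 members for PDGFRa+SCA1+, 3 to 5 for PDGFRa+SCA1- and 4 to 4 for PDGFRa-SCA1+ against DC, 0 to 1 between the PDGFRa+ fractions, and 4 to 6 and 3 to 5 for PDGFRa-SCA1+ against PDGFRa+SCA1+ and PDGFRa+SCA1-. It gave 2 to 4 for EM organoids and 2 to 3 for co-cultured organoids against day 0, 2 to 4 between the organoids, 5 to 8 and 6 to 7 for SCA1+Msc alone and co-cultured against day 0, 0 to 0 between these, 5 to 8 and 8 to 8 for SCA1+Msc against ductal cells at day 0 and 15, and 4 to 7 for the difference of changes.

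With a replicate block, transwell counts went from 3 to 2 for co-cultured organoids against day 0 (Fgfr3, adjusted p = 0.0639) and from 6 to 5 for the difference of changes (Fgf1), where samples share only a number (correlations of -0.0188 to 0.0295). The homeostasis block changed no other call of a member than those given with the results. With the pseudocount of 0.1, Fgfr4 in PDGFRa+SCA1+ against DC had an adjusted p of 0.119.

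Over all genes, the 100 genes between the PDGFRa+ fractions became 54 (quantile), 20 (block), 4 (only the groups compared) and 6 to 392 without 1 library. The 23 between SCA1+Msc co-cultured and alone became 40 (pseudocount), 51 (no filter), 5 (block) and 0 (only the groups compared). Only the groups compared gave 6921 for 4054 genes in PDGFRa+SCA1+ against DC and 2173 for 3658 in PDGFRa-SCA1+ against PDGFRa+SCA1-. Quantile normalization shifted the median of all genes by up to 0.34 upward and 0.36 downward (log2), and the share of higher calls from 34.6% to 46.1% in PDGFRa+SCA1- against DC. Of 53 named pathway gene results, 46 passed under every alternative, with 0 reversed, and 40 of 75 list counts, most of them small, moved by over 1.5 times under at least 1 alternative.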

Other observations

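The genes with a pattern most like a member were ranked by the lower of its Pearson r over the 12 homeostasis and over the 12 transwell samples, on log2(value + 1), among 13356 genes. The samples of a group share a cell type, so that these r values describe differences between cell types. For Fgf2 the leading genes were Tbx20 (0.971) and Vgll3 (0.970), for Fgf7 Prrx2 (0.970) and Plod2 (0.957), and for Fgf18 Fez1 (0.921) and Klhl29 (0.902). For Fgfr1 they were Sox5 (0.965) and Fxyd1 (0.923), for Fgfr2 Dram1 (0.893) and Casc4 (0.883), for Fgfr3 Met (0.956) and Tstd1 (0.954), and for Fgfr4 Itih2 (0.920) and Fam107b (0.910). Fgf1 had no gene above 0.771 (Nat8f1).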
